A study of Danio rerio with 4 samples.

Results

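Hif-1α ChIP-seq peaks that were called in wild-type zebrafish larvae and overlapped no peak called in *vhl* mutants are described here. A peak belonged to this set when its row of the wild-type peak list shared no bp with any row of the *vhl* peak list. This held for 1119 of the 1280 wild-type peaks (87.4%, 95% interval 85.5 to 89.2%), which are called wild-type-only peaks below. The name refers to the called lists, as *vhl* reads at these positions were not counted. The other 161 overlapped a *vhl* peak and are called shared peaks. The *vhl* list held 5177 peaks, so the series holds 6457 rows in all. The peaks were chosen by their measured starts and ends in the called lists, so length and strength entered the choice, and their differences from the shared peaks are given as a description and without a test.

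The series has 4 libraries, all from de-yolked whole larvae of a mixed TL/LWT strain at 4 days post fertilisation (dpf), raised at 28 °C. A ChIP library made with a custom antibody against Hif-1α and an input library, which had no antibody, came from von Hippel Lindau (*vhl*) mutants, and another ChIP and input library came from wild-type larvae. Each genotype is represented by 1 pool of larvae, so no value has a replicate and a difference between genotypes cannot be told apart from a difference between pools or libraries. By the methods of the study, the mutants were homozygous for the *vhl* hu2117 allele and carried a GFP reporter built on a bacterial artificial chromosome with the *phd3* (*egln3*) gene. They were sorted from non-fluorescent siblings. Whether the wild-type larvae carried the reporter is not given in the sources used here.

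Hif-1α is the oxygen-regulated subunit of a transcription factor that binds short DNA sequences called hypoxia response elements. With oxygen present, prolyl hydroxylases such as Egln3 modify Hif-1α, and the ubiquitin ligase that contains the Vhl protein then marks it for degradation. Loss of *vhl* leaves Hif-1α stable in normal oxygen, whereas wild-type larvae in normal oxygen are expected to hold little of it. *egln3* is itself a well-known Hif target.

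In ChIP-seq, DNA bound by a protein is pulled down with an antibody and sequenced, and regions with more reads than the input are called as peaks. The peak caller MACS gives each peak its tags (reads, at most 1 kept per position), a score (the p-value as minus 10 times its log10), and a fold enrichment of the summit over the local background. It also gives a false discovery rate (FDR) in percent, obtained by calling peaks with ChIP and input exchanged. Every listed peak has a score of at least 50, which is a p-value of 1e-05. The *vhl* ChIP library held 33429235 uniquely mapped reads, of which 16145214 tags were kept, and the wild-type ChIP library held 16780814 reads and 7554444 tags. The *vhl* ChIP was thus 2.14 times deeper by tags kept. The input libraries held 13834669 reads (*vhl*) and 19400899 reads (wild-type). The fragment length modelled by the caller was 110 bp for *vhl* and 34 bp for wild-type, below the read length of 35 bp. Peak positions are those of the Zv9 (danRer7) assembly, counted from 1. All intervals are exact 95% intervals (Clopper-Pearson for shares, Poisson for counts per Mb). They cover counting error only, as each genotype has 1 pool and 1 library of each kind.

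Among the designed sequences of the study that fall within 10 kb of wild-type-only peaks are the ChIP-qPCR primers at *ap3m2*, which encodes a subunit of an adaptor complex for vesicle transport, and upstream of *egln3*. They are shown because they place wild-type-only peaks beside named genes. The *ap3m2* region (chr5:16031224-16031324) lay 626 bp from a wild-type-only peak, and the region 1 kb upstream of *egln3* (chr17:9785725-9785902) lay 5520 bp from one of 23 tags. Neither region lies in a wild-type-only peak. The *ap3m2* region lies inside a shared peak (16031115 to 16031429) and a *vhl* peak (16030604 to 16031883). The *egln3* region overlaps the end of a *vhl* peak (9783244 to 9785775). No sequence of the peaks themselves is printed, as no Zv9 genome was used. All primers read 5′ to 3′:
ap3m2 forward: gccattatctgagccacact
ap3m2 reverse: tctgccagttgcactctctc
egln3 1 kb upstream forward: aaccgcgataaaccttgaaa
egln3 1 kb upstream reverse: ttgttgaccaggagctacagaa

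Most wild-type-only peaks rested on very few tags. The lowest, median and highest tag numbers were 6, 6 and 265 for wild-type-only peaks, against 6, 15 and 153 for shared peaks. Exactly 6 tags were found in 594 wild-type-only peaks (53.1%) and in 16 shared peaks (9.94%). A further 311 wild-type-only peaks and 13 shared peaks had 7 tags. Together, 905 wild-type-only peaks (80.9%, interval 78.4 to 83.1%) stood at 6 or 7 tags, against 29 shared peaks (18.0%). At the other end, 15 tags or more were found in 27 wild-type-only peaks (2.41%) and in 83 shared peaks (51.6%). The ranges of the classes overlapped almost completely, and the difference lay in how the peaks were spread within them.

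**Figure D1:**
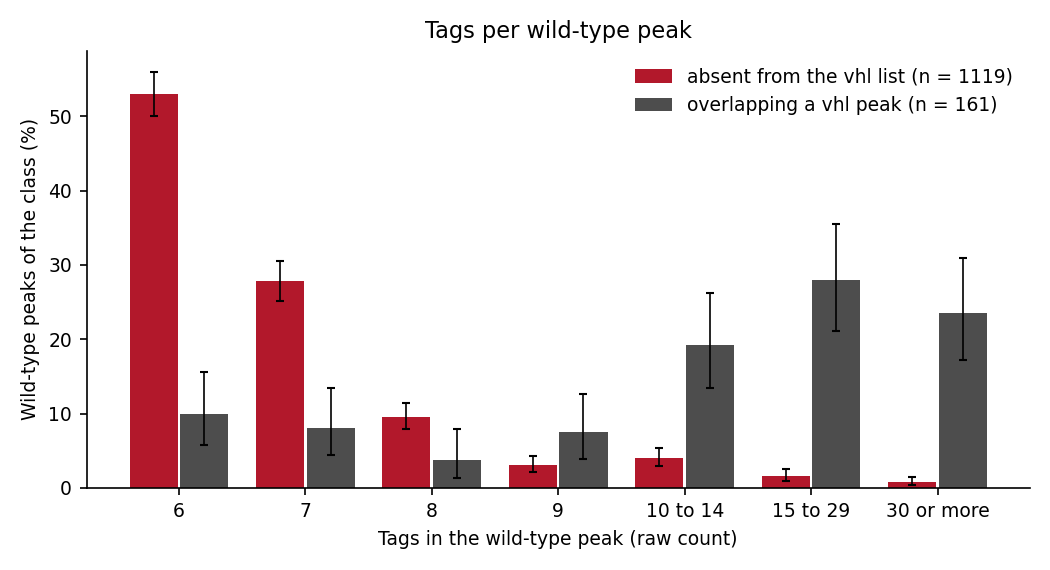
Share of each class of wild-type peaks (y axis, percent) by raw tags in the peak (x axis), with wild-type-only peaks (red, 1119) left of shared peaks (grey, 161) and exact 95% intervals as error bars. The wild-type-only peaks pile up at 6 tags (53.1%), while 51.6% of the shared peaks hold 15 tags or more.

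The wild-type-only peaks were also short. Their median length was 97 bp with quartiles of 88 and 104 bp and a range of 38 to 1199 bp, against a median of 165 bp, quartiles of 112 and 254 bp and a range of 53 to 1188 bp for shared peaks. Length went with tags inside the set. The median length was 92 bp for wild-type-only peaks of 6 tags, 101 bp for 7 tags, 116 bp for 8 tags, 138 bp for 10 to 14 tags, 210 bp for 15 to 29 tags and 445 bp for 30 tags or more. In sum, the wild-type-only peaks held 8435 tags over 114624 bp (73.6 tags per kb), and the shared peaks held 3723 tags over 32176 bp (116 tags per kb). The shared peaks, 161 in number, thus held 30.6% of all tags in wild-type peaks. Set against all tags kept from the wild-type ChIP library, the wild-type-only peaks took 0.112% and the shared peaks 0.0493%.

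Since the *vhl* library was deeper, each tag number was multiplied by the ratio of tags kept to ask whether a site of equal strength would have reached the smallest tag number in the *vhl* list, which was 15. A wild-type peak of 6 tags corresponded to 12.8 tags at the *vhl* depth, one of 7 tags to 14.96, just under the limit, and one of 8 tags to 17.1. By this calculation 214 wild-type-only peaks (19.1%, interval 16.9 to 21.6%) reached 15 tags, against 132 shared peaks (82.0%), and the remaining 905 wild-type-only peaks did not. In the whole wild-type list 27.0% of peaks had the 8 tags that this needs. The median *vhl* peak held 47 tags, a number that 15 wild-type-only peaks (1.34%) and 54 shared peaks (33.5%) reached after scaling. The calculation takes no account of the local background, fragment length or peak width, and for the 311 peaks of 7 tags it turns on a difference of less than 1 tag. The part of depth in the absence of these peaks from the *vhl* list was not tested.

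Scores of the wild-type-only peaks lay just above the limit of 50. The lowest, median and highest scores were 50.02, 57.3 and 924 for wild-type-only peaks and 50.1, 108 and 1110 for shared peaks. Between 50 and 55 there were 349 wild-type-only peaks, between 55 and 60 there were 418, and between 60 and 70 there were 248. In these bands they made up 95.6%, 95.9% and 94.7% of all wild-type peaks. Between 70 and 100 there were 90, or 75% of the band. At a score of 100 or more there were 14, or 14.4% of the 97 wild-type peaks there (interval 8.12 to 23.0%), and 7.58% of the whole wild-type list had such a score. The share of wild-type-only peaks was thus flat up to a score of 70, lower between 70 and 100 and lowest at 100 or more.

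The FDR of these peaks was high and did not follow the score in a simple way. Its median was 49.4% for wild-type-only peaks, with a range of 0 to 90.75%, and 41.9% for shared peaks, with a range of 0 to 90.04%. Among wild-type-only peaks the median FDR was 42.1% at scores of 50 to 55, 49.6% at 55 to 60, 73.1% at 60 to 70, 79.8% at 70 to 100 and 29.6% at 100 or more. The median FDR thus rose with the score up to the band of 70 to 100 and was lowest at 100 or more. The highest single value, 90.75%, was at a score of 69.11. At a limit of 5% there were 2 wild-type-only peaks (0.179%) and 44 shared peaks (27.3%), beside 3.59% of the whole list. With a limit of 40%, 10 wild-type-only peaks and 75 shared peaks passed. With a limit of 50%, 605 wild-type-only peaks and 107 shared peaks did. The 605 include all 349 wild-type-only peaks with scores of 50 to 55, whose FDR was between 41.34 and 43.63%. Others had higher scores, as the median FDR at 55 to 60 was 49.6%.

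**Figure D2:**
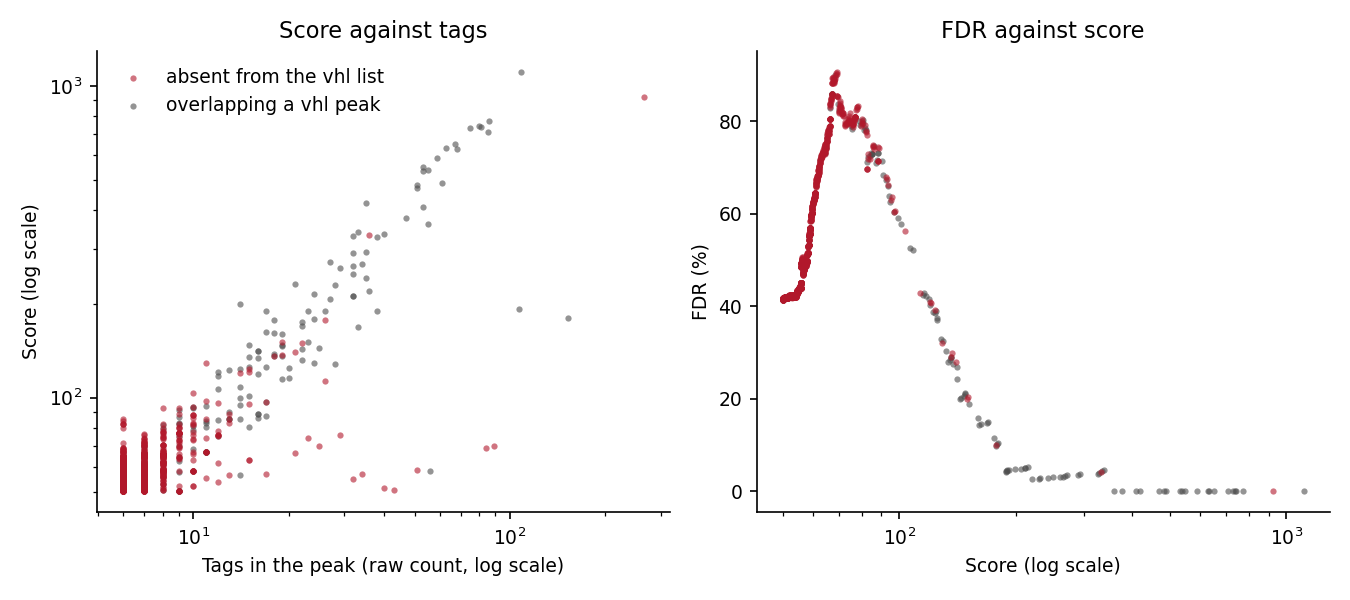
Left, score (y axis, log scale) against raw tags in the peak (x axis, log scale), and right, FDR in percent (y axis) against score (x axis, log scale), for wild-type-only peaks (red, drawn on top) and shared peaks (grey). The FDR climbs from about 40% at a score of 50 to 90.75% near 70 and drops to 0 at the highest scores, where shared peaks prevail.

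Fold enrichments were less different between the classes than tags or scores. The median was 17.7 for wild-type-only peaks (range 3.42 to 49.5) and 21.5 for shared peaks (range 6.04 to 77.2). The values recurred. Only 226 different fold enrichments occurred among the 1119 wild-type-only peaks, and 1015 of these peaks (90.7%) had a value that another member of the set also had. A fold enrichment of 17.72 was given to 88 wild-type-only peaks, 22.0 to 80, 27.5 to 44 and 19.69 to 42. The mean was 0.182 tags over each position of the genome. Summits of 3, 4, 5 and 6 tags would have fold enrichments of 16.5, 22.0, 27.4 and 32.9 over that mean. The recurring 22.0 and 27.5 lie close to the values for 4 and 5 tags. The values 16.5 and 32.99, which also recurred, lie close to those for 3 and 6 tags. The most frequent value, 17.72, matches none of them.

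The peak with the most tags, the highest score and the greatest length of the set lay near *egln3*, on chromosome 17 from 9776705 to 9777903. It was 1199 bp long and held 265 tags at a fold enrichment of 10.95. Its score of 924 (FDR 0) ranked 2 in the whole wild-type list. Scaled to the *vhl* depth its tags corresponded to 566. The nearest *vhl* peak (9783244 to 9785775, 719 tags) began 5340 bp away, a gap wider than either peak. The other wild-type-only peak with an FDR of 5% or less lay on chromosome 13 from 8974118 to 8974429. It held 36 tags over 312 bp at a fold enrichment of 47.25, and its score was 333 (FDR 4.17%). No *vhl* peak lay within 308 kb of it. Unlike the peak near *egln3*, it combined many tags with one of the highest fold enrichments of the set.

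The 8 wild-type-only peaks that followed by score were weaker, with scores of 123 to 178 and ranks of 50 to 84 in the wild-type list. The strongest of them lay on chromosome 14 (23111850 to 23112137, 26 tags, fold enrichment 22.55, FDR 10.0%). It was 92.964 kb from a *vhl* peak. Peaks on chromosome 7 (75180021 to 75180202, 19 tags) and chromosome 6 (44092506 to 44092721, 22 tags, and 12951723 to 12951975, 21 tags) followed, at 2.026, 1.925 and 5.636 kb from a *vhl* peak. So 4 of the 10 highest-scoring wild-type-only peaks were within 10 kb of a *vhl* peak without touching it. Among all 1119 wild-type-only peaks, 104 were that close to a *vhl* peak. The remaining 4 of the 10 lay on chromosome 9 (13631233 to 13631468, 19 tags), chromosome 21 (13485462 to 13485624, 18 tags), chromosome 25 (27505478 to 27505563, 11 tags) and chromosome 13 (47426452 to 47426664, 15 tags), at 16.591 to 405 kb. The peak on chromosome 25 had the highest fold enrichment of the set, 49.5, from only 11 tags in 86 bp.

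After this peak and the peak of 36 tags on chromosome 13, the highest fold enrichments belonged to peaks of few tags. They lay on chromosome 3 (47413615 to 47413776, 10 tags, fold enrichment 38.16, and 47825206 to 47825269, 10 tags, 34.08) and on chromosome 4 (48027026 to 48027077, 6 tags, 32.99, a value that other members shared). Their FDR values were 73.98, 56.25 and 69.78%. At the limit of the list, the wild-type-only peaks with the lowest scores lay on chromosome 12 (33513230 to 33513329), chromosome 17 (1130908 to 1131027) and chromosome 8 (47484062 to 47484139), with scores of 50.02, 50.02 and 50.04 and with 7, 7 and 6 tags.

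Around *egln3*, from 9.6 to 9.9 Mb of chromosome 17, 4 wild-type-only peaks and 3 shared peaks were found within 123854 bp. The wild-type-only peaks began at 9682717 (32 tags, score 54.76, fold enrichment 5.91), 9776705 (265 tags), 9780063 (23 tags, score 74.38, fold enrichment 7.50) and 9806126 (40 tags, score 51.39, fold enrichment 4.85). The shared peaks began at 9794346 (107 tags), 9797272 (56 tags) and 9798220 (153 tags), and their fold enrichments were 6.97, 6.04 and 6.58. All 7 thus paired many tags with a low fold enrichment. As a rough measure of local background, tags per kb were divided by the fold enrichment. It sets a density over the whole peak against an enrichment at the summit, so peak length and shape also enter it. A wild-type-only peak of 6 tags in 38 bp on chromosome 6 (305502 to 305539) stood at percentile 98.98. On this measure the 4 wild-type-only peaks stood at percentiles 98.4 to 99.2 of the wild-type list and the 3 shared ones at 98.75 to 99.4. In the *vhl* list, 5 peaks of the same stretch (536 to 2871 tags) stood at percentiles 99.5 to 100 of their own list, and the *vhl* peak that began at 9889651 stood at 12.5. The reporter of the mutants was built on this gene, and its part in these values was not tested.

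**Figure D3:**
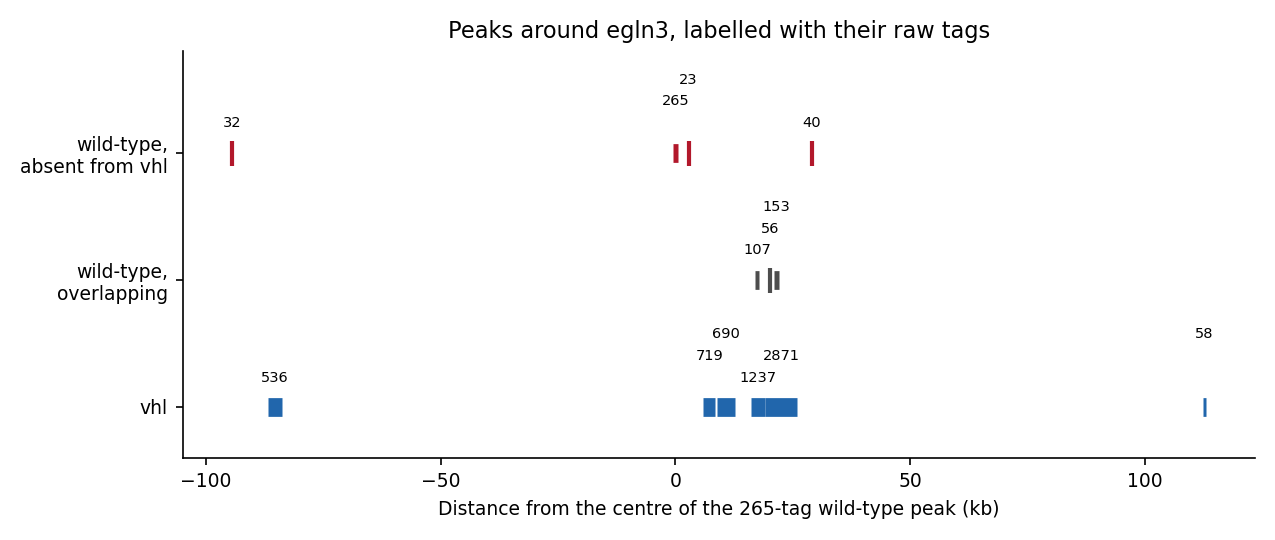
Peaks near *egln3* drawn to scale along the x axis, in kb from the centre of the wild-type-only peak of 265 tags, with wild-type-only peaks (top row), shared wild-type peaks (middle) and *vhl* peaks (bottom), each with its raw tags as a number. The wild-type-only peaks of 265 and 23 tags lie beside the *vhl* peak of 719 tags without touching it. Those of 32 and 40 tags are the outermost wild-type peaks drawn, and a *vhl* peak of 58 tags lies beyond the latter.

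The only chain of more than a pair lay on chromosome 4, where 4 wild-type-only peaks stood between 61296113 and 61299746, a width of 3634 bp. They held 29, 51, 89 and 84 tags, and their lengths were 268, 534, 633 and 588 bp. Their scores were only 58.49 to 75.94 and their fold enrichments 3.42 to 8.39, with FDR values of 55.44 to 90.35%. The nearest *vhl* summit was 1.07 Mb away. On the same measure of local background they stood at percentiles 98.2 to 99.8. The 8 peaks of this chain and of the *egln3* locus made up 7.27% of all tags in wild-type-only peaks. Without them, the other 1111 peaks averaged 7.04 ± 2.52 tags (SD over peaks) with a highest value of 43, and held 70.8 tags per kb. That highest value belonged to a peak on chromosome 25 (27522820 to 27522886). It packed 43 tags into 67 bp, at a score of 50.72 and a fold enrichment of 4.08, and had the highest value of the background measure in the wild-type list. Above percentile 90 of that measure stood 94 wild-type-only peaks (8.40%) and 34 shared peaks (21.1%), and above percentile 99 stood 11 (0.983%) and 2 (1.24%).

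Wild-type-only peaks were found on all 25 chromosomes, with 20 (chromosome 22) to 60 (chromosome 9) on each. As a share of the wild-type peaks of a chromosome they ran between 78.7% (37 of 47, chromosome 11) and 94.2% (49 of 52, chromosome 18), and the interval of every chromosome included the overall 87.4%. Chromosomes therefore could not be ranked by this share. Per Mb between the outermost peaks of either list, there were 0.829 wild-type-only peaks over the 1350.6 Mb covered. Chromosome 19 had the highest density (57 peaks, 1.14 per Mb, interval 0.861 to 1.47) and chromosome 22 the lowest (0.474 per Mb, interval 0.289 to 0.732). The mean lay inside the interval of 23 chromosomes and outside that of the other two, 19 and 22. Densities of *vhl* peaks were 2.58 (chromosome 4) to 5.00 (chromosome 19) per Mb, with 3.83 overall. For each wild-type-only peak there were 2.82 *vhl* peaks on chromosome 9 and 8.70 on chromosome 22.

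**Figure D4:**
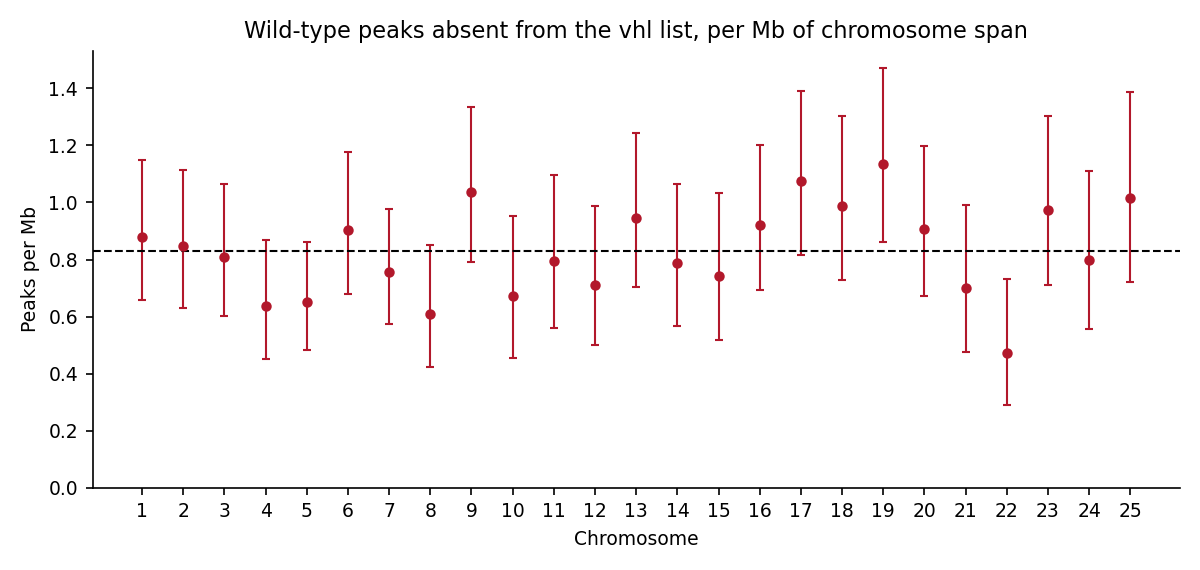
Wild-type-only peaks per Mb of chromosome span (y axis) on chromosomes 1 to 25 (x axis), with exact 95% Poisson intervals as bars and the mean of all chromosomes as the dashed line at 0.829. Chromosome 22 lies lowest at 0.474 per Mb and chromosome 19 highest at 1.14 per Mb.

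The ends of the chromosomes were compared with the rest. The first and last 10% of the chromosome spans together held 190 wild-type-only peaks (16.98%, interval 14.8 to 19.3%), 35 shared peaks (21.7%, interval 15.6 to 28.9%) and 1271 *vhl* peaks (24.6%, interval 23.4 to 25.7%). The intervals of the wild-type-only and the *vhl* peaks did not overlap, whereas that of the shared peaks overlapped both. Wild-type-only and shared peaks could therefore not be told apart by this share. As wild-type-only peaks make up 87.4% of the wild-type list, the low share was not shown to be particular to them. An even spread would give 20%.

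The longest stretch of the genome without a *vhl* peak was on chromosome 4 from 29272320 to 59374526 (30.1 Mb). It held 6 wild-type-only peaks (0.199 per Mb, interval 0.0731 to 0.434), while the remaining 31.2 Mb of the chromosome held 33 wild-type-only peaks (1.06 per Mb, interval 0.729 to 1.49). Wild-type-only peaks were thus sparser in this stretch than on the rest of the chromosome, whose 33 peaks include the chain of 4. Both lists rest on uniquely mapped reads, and the part of regions that such reads cannot reach was not tested. The 3 wild-type-only peaks farthest from a *vhl* summit all lay in the stretch of 30.1 Mb. They began at 48027026 (6 tags, 11.3 Mb away), 38544284 (6 tags, 9.27 Mb) and 35995389 (11 tags, 6.72 Mb). A stretch without *vhl* peaks did not always lack the others. On chromosome 17 from 38071218 to 41577113 (3.51 Mb) there were 8 wild-type-only peaks, or 2.28 per Mb (interval 0.985 to 4.50). This was the highest density among the long stretches without a *vhl* peak, and its interval takes no account of that choice. Several other such stretches held no wild-type-only peak, among them one of 2.93 Mb on chromosome 22.

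The median distance between the summit of a wild-type-only peak and the nearest *vhl* summit was 106 kb (quartiles 37.6 and 236 kb). Its range was 324 bp to 11.3 Mb. For shared peaks the median was 29 bp. To set these distances against random placement, the share of positions at each distance was calculated for a peak of the same length placed evenly on its own chromosome, with the positions that touch a *vhl* peak left out. This gave a median of 120 kb. Within 10 kb of a *vhl* summit lay 100 wild-type-only peaks (8.94%, interval 7.33 to 10.8%), against a calculated 6.60% or 73.9 peaks, a ratio of 1.35. In the whole wild-type list, 20.4% of the summits were that close.

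Counts exceeded even placement by a small number between 1 kb and 1 Mb. Within 1 kb there were 9 wild-type-only peaks (calculated 5.45), within 5 kb 50 (37.1) and within 20 kb 170 (141). Within 50 kb there were 346 (303), within 100 kb 538 (498), within 200 kb 787 (737) and within 1 Mb 1094 (1085). The ratio was 1.35 at both 5 and 10 kb, 1.21 at 20 kb, 1.14 at 50 kb, 1.08 at 100 kb and 1.01 at 1 Mb. The intervals of the observed share at 1 kb (0.368 to 1.52%, against 0.487% calculated) and at 1 Mb (96.7 to 98.5%, against 96.97%) included even placement. At 5 kb the interval barely excluded it (3.334 to 5.85%, against 3.319%). Each count includes those at shorter distances, so the distances are not separate evidence. Even placement ignores genes and regions that unique reads cannot reach, and the contribution of these to the excess was not tested. Without chromosome 4, 98 of 1080 wild-type-only peaks (9.07%) lay within 10 kb, against 6.69% calculated, so the ratio of 1.36 did not rest on the long empty stretch there.

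**Figure D5:**
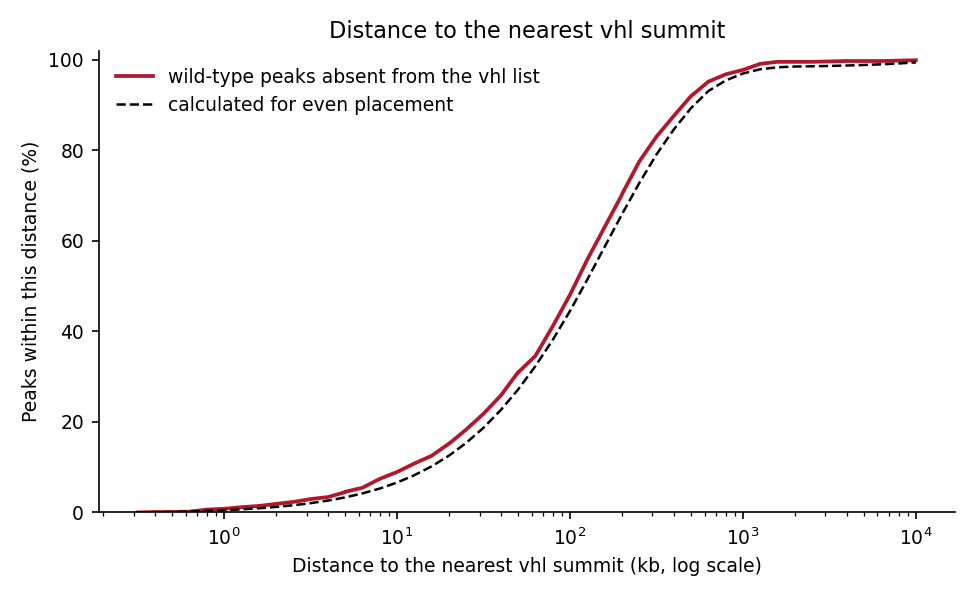
Percent of wild-type-only peaks (y axis) whose summit lay within a given distance of the nearest *vhl* summit (x axis, kb, log scale), as the solid line, and the percent calculated for even placement, as the dashed line. The observed share is 8.94% against 6.60% calculated at 10 kb and 48.1% against 44.5% at 100 kb, while under 1 kb, where few peaks lie, the lines cross.

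The 100 wild-type-only peaks within 10 kb of a *vhl* summit were near 99 different *vhl* peaks on 23 chromosomes. These *vhl* peaks were ordinary members of their list, with a median score of 94.2 against 95.4 for all *vhl* peaks and an FDR of 5% or less for 80.8% (interval 71.7 to 88.0%) against 77.1%. The 100 wild-type-only peaks themselves had a median score of 55.7, against 57.5 for the 1019 farther away. Among them, 25 (25%, interval 16.9 to 34.7%) had 8 tags or more, against 189 (18.5%, interval 16.2 to 21.1%) of those farther away, so their intervals overlapped. By score, the share within 10 kb was 12.3% (interval 9.06 to 16.2%) at 50 to 55, 7.66% at 55 to 60, 5.24% (2.82 to 8.80%) at 60 to 70, 8.89% at 70 to 100 and 28.6% (4 of 14, interval 8.39 to 58.1%) at 100 or more. The share did not run in one direction with the score, and the interval of the top band was wide. The 6.60% calculated for even placement of the whole set lay below the intervals at 50 to 55 and at 100 or more. It lay inside the intervals of the bands between 55 and 100. The band of 50 to 55 alone held 43 of the 100 peaks. Even placement was not calculated for each band.

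The wild-type-only peak closest to a *vhl* peak lay at *ap3m2*, on chromosome 5 from 16031951 to 16032050. It held 9 tags at a fold enrichment of 9.33 (score 52.0, FDR 42.5%) and was 67 bp from the end of a *vhl* peak of 616 tags (16030604 to 16031883). That *vhl* peak also held a shared wild-type peak (16031115 to 16031429) of 85 tags and a score of 708, so the wild-type-only peak stood at the flank of a site called in both genotypes. The next closest lay on chromosome 14 (36753609 to 36753685, 6 tags, 73 bp from a *vhl* peak) and chromosome 11 (31918015 to 31918083, 6 tags, 227 bp). Among the shared peaks, those with the fewest bp in common with a *vhl* peak were on chromosome 13 (41007906 to 41007958, 14 tags, 53 bp), chromosome 1 (59578276 to 59578373, 6 tags, 61 bp) and chromosome 14 (48574893 to 48574962, 7 tags, 70 bp). Those on chromosomes 13 and 14 lay wholly inside the *vhl* peak, so their few shared bp reflect their own length, and only the one on chromosome 1 crossed an edge. Few wild-type-only peaks were near the limit, as 1105 of them were more than 1000 bp from any *vhl* peak.

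Wild-type-only peaks showed little clustering among themselves within 10 kb, and an excess of neighbours within 50 kb could not be decided. Another wild-type-only peak lay within 10 kb of 20 of them (1.79%, interval 1.10 to 2.75%), against 18.8 calculated for the same numbers spread evenly on each chromosome. Within 1 kb there were 5 (calculated 2.07), within 5 kb 16 (9.54), within 50 kb 110 (90.2) and within 100 kb 197 (173). At 50 kb the share was 9.83% (interval 8.15 to 11.7%), against 8.06% calculated, a ratio of 1.22. The intervals at the other distances included the calculated share. Neighbouring peaks count each other, so these intervals, which treat peaks as independent, are too narrow. Whether the peaks had more neighbours within 50 kb than an even spread gives therefore cannot be decided. The chain on chromosome 4 supplied 3 of the 5 peaks at 1 kb and 4 of the 20 at 10 kb. Shared peaks were closer to each other. Of the 161, 20 had another shared peak within 1 kb and 21 (13.0%, interval 8.26 to 19.2%) within 10 kb, against 0.389 calculated at 10 kb. Because 1 long *vhl* peak can overlap more than 1 wild-type peak, the rule itself can place shared peaks side by side. Only 8 wild-type-only peaks (0.715%) lay within 10 kb of a shared peak.

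When wild-type-only peaks were joined across gaps of up to 10 kb, 1099 stayed single, and there were 8 pairs and the chain of 4. The tightest pair, on chromosome 1 (38770793 to 38771031), was split by 12 bp and had 9 tags on each side, with FDR values of 80.23 and 90.75%. One pair belonged to the *egln3* locus (9776705 to 9780204, 265 and 23 tags). The pair with the next highest tags was on chromosome 16 (35233794 to 35235774), with 7 and 13 tags and scores of 59.38 and 85.70. The other pairs were on chromosome 3 (56269796 to 56275407), chromosome 17 (41048160 to 41052590, inside the stretch without *vhl* peaks), chromosome 18 (31085229 to 31088264) and chromosome 23 (5881810 to 5883511 and 7394837 to 7403083). Each peak in these pairs had 6 to 8 tags, and apart from the *egln3* pair only the pair on chromosome 3 had a *vhl* summit within 10 kb, at 7.898 kb.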

How the data were processed

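The authors aligned single reads of 35 bp to Zv9 (danRer7) with CASAVA 1.8.2, kept uniquely mapped reads and called peaks with MACS 1.4.2, each ChIP library against the input of its genotype (p-value limit 1e-05, band width 300 bp, local background over 1000 and 10000 bp). The deposited lists give tags as raw counts without scaling for depth, the score, the fold enrichment as a ratio to local background, and the FDR as a percent, all as computed by the authors' caller. Depths are those per the file headers. Values were not scaled between genotypes.

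Overlap (at least 1 shared bp), distances, chains and even-placement shares were calculated here with Python 3.11.15, numpy 2.4.6, pandas 2.3.3 and scipy 1.17.1, and drawn with matplotlib 3.10.9. Even placement was calculated and not simulated, and no hypothesis test was run. The overlap and placement calculations were tested on simulated data.

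Peaks were named by rule: the 10 highest scores, every FDR of 5% or less, the 5 with most tags, the 5 longest, the 5 highest fold enrichments, the 3 closest to and the 3 farthest from *vhl* peaks, the largest chains, and the gene *egln3*. *ap3m2*, the peaks around *egln3*, the stretch on chromosome 17, the peaks of lowest score and the peak with the highest background measure were picked once their values had been seen. The peak set and these lists were chosen with earlier results of these data known. Another primer pair is not reported here. Motifs, genes near peaks and the Hif pathway gene list were not analysed here, as no Zv9 sequence or annotation was used.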

Additional observations from a re-analysis of the deposited data

How the results depend on the processing

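The number of wild-type-only peaks was 1065 to 1176 under other overlap rules, minimum gaps and stricter *vhl* lists. It depended on the limit for wild-type peaks: 352 had a score of 60 or more, 14 a score of 100 or more and 2 an FDR of 5% or less. The FDR count was 3 at a limit of 10%, 4 at 20% and 605 at 50%. Of peaks scoring 60 or more, 25 (7.10%, interval 4.65 to 10.3%) lay within 10 kb of a *vhl* summit and 11 within 10 kb of one another. That interval includes both the 6.60% calculated for even placement of the whole set and the 8.94% observed in it. Whether these stronger peaks share the excess near *vhl* summits therefore cannot be decided. The number near a *vhl* summit was 9 at 1 kb, 346 at 50 kb and 538 at 100 kb, and was 82 to 104 at 10 kb under the other settings. The number with a neighbour was 5 at 1 kb, 16 at 5 kb and 110 at 50 kb, and 28 with any wild-type peak as neighbour. The highest value was on chromosome 18 for the share, where the intervals do not allow a ranking, and on chromosome 19 for the density. Median tags (6) and median length (97 bp) were the same in the 1105 peaks more than 1000 bp from a *vhl* peak. That alternative left out few peaks, so it could hardly move a median. The 214 peaks that reached the *vhl* minimum were also 214 when scaled by uniquely mapped reads. Both scalings put 7 tags under 15 and 8 tags over it, so this count could not change. Leaving out chromosome 4, or its chain of 4 peaks, was chosen after seeing the data. No paired analysis was possible because each genotype has 1 library of each kind. At 6 or 7 tags a peak, depth limits what can be said of any single site.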
